A study of Mus musculus with 16 samples.

Results

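This report describes one experiment of a larger series: RNA of mouse cells after 4 h of induced ERK signalling, against RNA of the same cells before induction. It uses 8 libraries of the 16 in the series, 4 of the group 0h and 4 of the group 4h, picked by their labels. The cells were the line CRAFR26, targeted mouse embryonic stem cells driven towards the pluripotent state that the labels call RSC. They carry a c-RAF kinase construct that 4-hydroxytamoxifen (4OHT) switches on. They were kept in N2B27 medium with 2 µM of IWP2, an inhibitor of Wnt secretion, 1 µM of the MEK inhibitor PD0325901 (PD03) and 1000 U/ml of the cytokine LIF. For 48 h before the experiment, 250 nM of the FGF receptor inhibitor PD173074 (PD17) took the place of PD03. All 8 libraries share this pre-treatment. The 0h libraries were taken without 4OHT and the 4h libraries after 4 h of 250 nM 4OHT. Each group held 2 libraries of clone 4 and 2 of clone 8, 2 clones of the same line. No group with vehicle for 4 h was analysed here, so the induced kinase, 4OHT itself and 4 h of culture cannot be told apart. The question of the comparison is which transcripts respond to ERK in this cell type.

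ERK is the last kinase of a chain in which RAF kinases activate MEK and MEK activates ERK. In pluripotent cells the usual trigger is FGF4, which the cells make themselves, acting on FGF receptors. Active ERK switches on immediate-early transcription factors of the EGR, FOS and JUN families and ETS factors. It also switches on its own brakes, the Sprouty proteins and the dual-specificity phosphatases, and it is known to weaken the naive pluripotency network.

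Library totals ran from 4.31 to 9.12 M counts. A set of 8 features, mostly ribosomal RNA or loci with ribosomal sequence, held 53.3% to 64.6% of the counts. Levels are given in CPM, counts scaled to the TMM-adjusted library total, and 3 counts were worth 0.302 to 0.762 CPM. Pluripotency was checked on markers, whose summed level cannot tell the RSC state from other pluripotent states. The summed level of 9 pluripotency markers was 1370 to 1780 CPM at 0h and 1060 to 1690 CPM at 4h. Of 7 fibroblast markers, 5 had at most 3 counts in each library and 3 had none. Nothing in the labels says whether the 2 libraries of a clone came from separate cultures, so p-values measure the spread between these libraries, which may be technical.

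In the 12742 genes tested, 1645 (12.9%) were called at 4h against 0h with clone as a covariate, at a Benjamini-Hochberg adjusted p under 0.05 in edgeR's quasi-likelihood test. Of these, 936 (7.35%) were higher and 709 (5.56%) lower. Tested within each clone, 2607 genes (20.5%) were called in clone 4 and 664 (5.21%) in clone 8. The genes called in both clones with the same sign numbered 435 (3.41%), 262 higher (2.06%) and 173 lower (1.36%), and 9 were called with opposite signs. The shared set is 16.7% of the clone 4 calls and 65.5% of the clone 8 calls. Of the 435, 91 changed by at least 2-fold in both clones, 68 upwards and 23 downwards. The median log2 change of the shared raised genes was 0.99 in clone 4 and 0.64 in clone 8, and that of the shared lowered genes -1.06 and -0.72. Over all tested genes the median was -0.006. In these bulk samples, fewer cells of a type and less RNA per cell cannot be told apart.

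**Figure D1:**
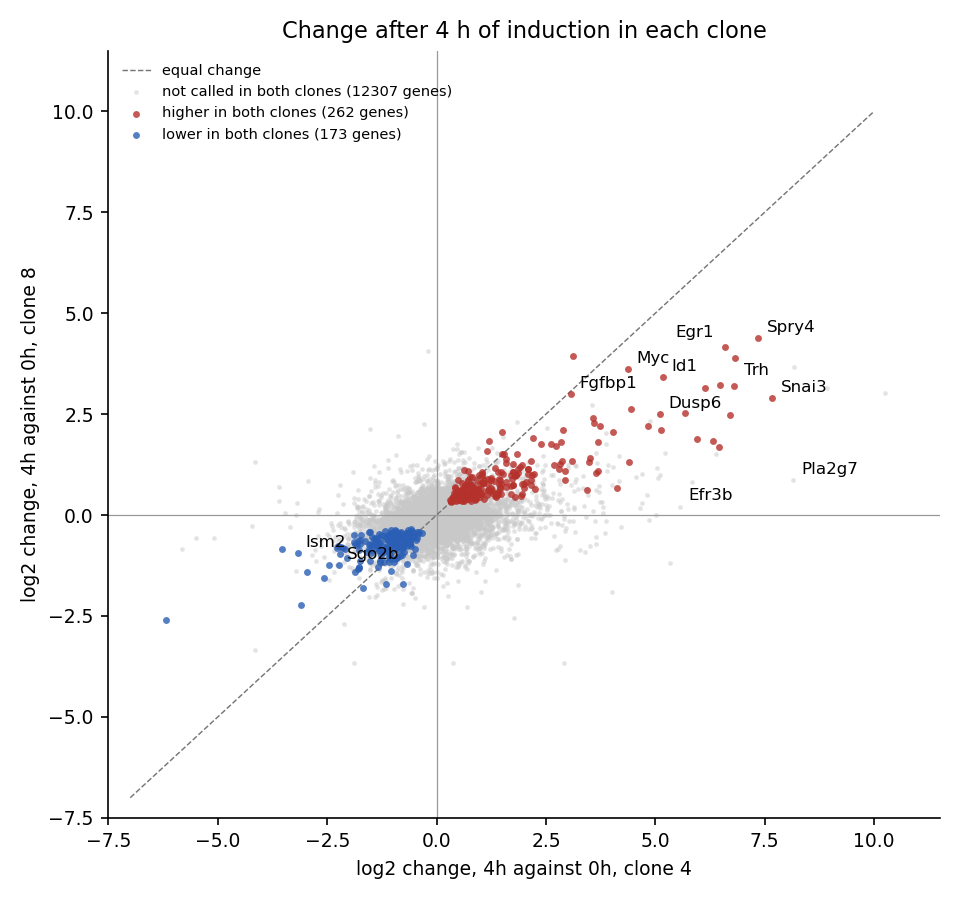
Log2 change at 4h against 0h in clone 4 (x axis) and clone 8 (y axis), 1 point for each of the 12742 tested genes. Red points are the 262 genes higher and blue points the 173 genes lower in both clones. Most of the large rises lie below the dashed line of equal change, and Myc and Fgfbp1 lie close to it. The clone 8 value of Fgfbp1 rests on 6 and 0 counts at 0h.

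The 0h and 4h groups were compared through 4 libraries each, and 1 library moved the counts. Without 0h clone 4 replicate 1 the covariate fit called 964 genes and without 4h clone 4 replicate 1 it called 995. Without 0h clone 8 replicate 1 the genes called in both clones fell in number to 131. Without 0h clone 8 replicate 2 they were 218, without 4h clone 8 replicate 1 they were 216, and without 4h clone 8 replicate 2 they were 213. With library totals in place of TMM scaling, 513 genes were called in the covariate fit and 68 in both clones, and the 262 higher and 173 lower in both clones became 64 and 4. The falls shared by the clones therefore depend on the scaling. Over the 27 gene lists, the 58 entries higher in both clones became 27 with library totals and the 18 lower ones became 1, in the glycolysis list. Of the 24 lists with an entry higher in both clones, 9 had 0 under that scaling, among them the naive, FOS and JUN, EGF-type, DNA methylation, Nodal and ribosome biogenesis lists.

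Among the genes named by the selection rule, ranked by the smaller of the within-clone changes, the strongest shared rise was that of Spry4. It encodes a Sprouty-family inhibitor of receptor signalling to ERK (ENSMUSG00000024427, chromosome 18, 38586247 to 38601415, minus strand). Its 0h libraries held 0.999 and 1.67 CPM in clone 4 and 1.97 and 3.45 CPM in clone 8, and its 4h libraries 218 and 238 CPM in clone 4 and 55 and 54.4 CPM in clone 8. Every 4h library lay far above every 0h library, and clone 4 reached higher levels than clone 8. The log2 change was 5.78 (SE 0.35, adjusted p 5.48e-09), with 7.35 in clone 4 and 4.39 in clone 8. Egr1, an immediate-early zinc finger transcription factor (ENSMUSG00000038418, chromosome 18, 34859823 to 34864984, plus strand), went from 0.999 and 3.94 CPM in clone 4 and 1.45 and 2.01 CPM in clone 8 to 228 and 289.8 CPM in clone 4 and 29.8 and 31.4 CPM in clone 8. Its groups did not overlap either, and its log2 change was 5.65 (SE 0.39, adjusted p 2.83e-08), with 6.59 and 4.16 in clones 4 and 8.

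Trh, which encodes the precursor of thyrotropin-releasing hormone (ENSMUSG00000005892, chromosome 6, 92242061 to 92244650, minus strand), was the next. It was at 0.599 and 0.455 CPM in clone 4 and 1.14 and 1.44 CPM in clone 8 at 0h and at 55.6 and 66.8 CPM in clone 4 and 17.5 and 20.8 CPM in clone 8 at 4h. Its change was 5.16 (SE 0.36, adjusted p 3.24e-08) and its groups did not overlap. Myc, a transcription factor of growth and proliferation (ENSMUSG00000022346, chromosome 15, 61985391 to 61990374, plus strand), stood at 1.6 and 1.97 CPM in clone 4 and 2.28 and 0.575 CPM in clone 8 before and 37.6 and 37.8 CPM in clone 4 and 16.7 and 22.5 CPM in clone 8 after induction. Its rise of 4.08 (SE 0.49, adjusted p 1.86e-05) was of like size in the clones, 4.37 in clone 4 and 3.61 in clone 8, and the difference of -0.76 was not called (adjusted p 0.491).

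Id1, an inhibitor of basic helix-loop-helix factors and a classic BMP target (ENSMUSG00000042745, chromosome 2, 152736251 to 152737410, plus strand), held 0.799 and 0.455 CPM in clone 4 and 0.415 and 0.144 CPM in clone 8 at 0h. At 4h it held 23.2 and 21.6 CPM in clone 4 and 3.12 and 3.67 CPM in clone 8, a change of 4.54 (SE 0.47, adjusted p 3.88e-06). Bmp4, a BMP ligand (ENSMUSG00000021835, chromosome 14, 46383520 to 46390669, minus strand), was at 0.799 and 1.06 CPM in clone 4 and 0.83 and 1.15 CPM in clone 8 and then at 21.3 and 20.3 CPM in clone 4 and 5.93 and 6.28 CPM in clone 8, a change of 3.60 (SE 0.35, adjusted p 1.43e-06). Both genes were thus higher in all 4 induced libraries than in any uninduced one, which the selection rule already required within each clone. Snai3, a SNAIL-family repressor (ENSMUSG00000006587, chromosome 8, 122454208 to 122460733, minus strand), went from 0.20 and 0.455 CPM in clone 4 and 0.623 and 0.287 CPM in clone 8 to 82.3 and 62.5 CPM in clone 4 and 2.92 and 4.75 CPM in clone 8. Clone 8 stayed far below clone 4, and the change was 7.67 in clone 4 and 2.89 in clone 8. Over both clones the Snai3 change was 5.89 (SE 0.78, adjusted p 6.56e-05), above the 5.78 of Spry4.

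The other genes that the selection rule named were Ccnd2, Soga3, Phlda1, Fgfbp1, Plaur, Dusp6, Nefm and Pou4f2. Plaur encodes the urokinase receptor, Nefm a neurofilament subunit and Pou4f2 a POU-domain transcription factor. Their log2 changes over both clones ran from 3.06 (Fgfbp1) to 5.52 (Ccnd2). In all 15 named genes the rise was larger in clone 4 than in clone 8, and in 9 of them the difference was called. In 13 of the 15 the groups did not overlap. The selection rule already required each 4h library to lie beyond both 0h libraries of its clone, so this describes the choice. In Fgfbp1 and Pou4f2 the 4h libraries of clone 8 lay below a 0h library of clone 4. Soga3 had 3 counts over both 0h libraries of clone 4 and 357 at 4h, a ratio of 121 with a 95% counting interval of 41 to 588. Without 0h clone 8 replicate 1 the clone 8 rises of Ccnd2, Phlda1, Plaur, Nefm and Pou4f2 were no longer called, with adjusted p from 0.0578 to 0.232. Plaur and Pou4f2 also lost the clone 8 call without 4h clone 8 replicate 1 (adjusted p 0.137 and 0.075), and Pou4f2 without 0h clone 8 replicate 2 (0.105). Opposite-strand genes share 33% of the Phlda1 exon length and 19.2% of that of Nefm, and the strand setting of the counting is not given in the sources used here.

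**Figure D2:**
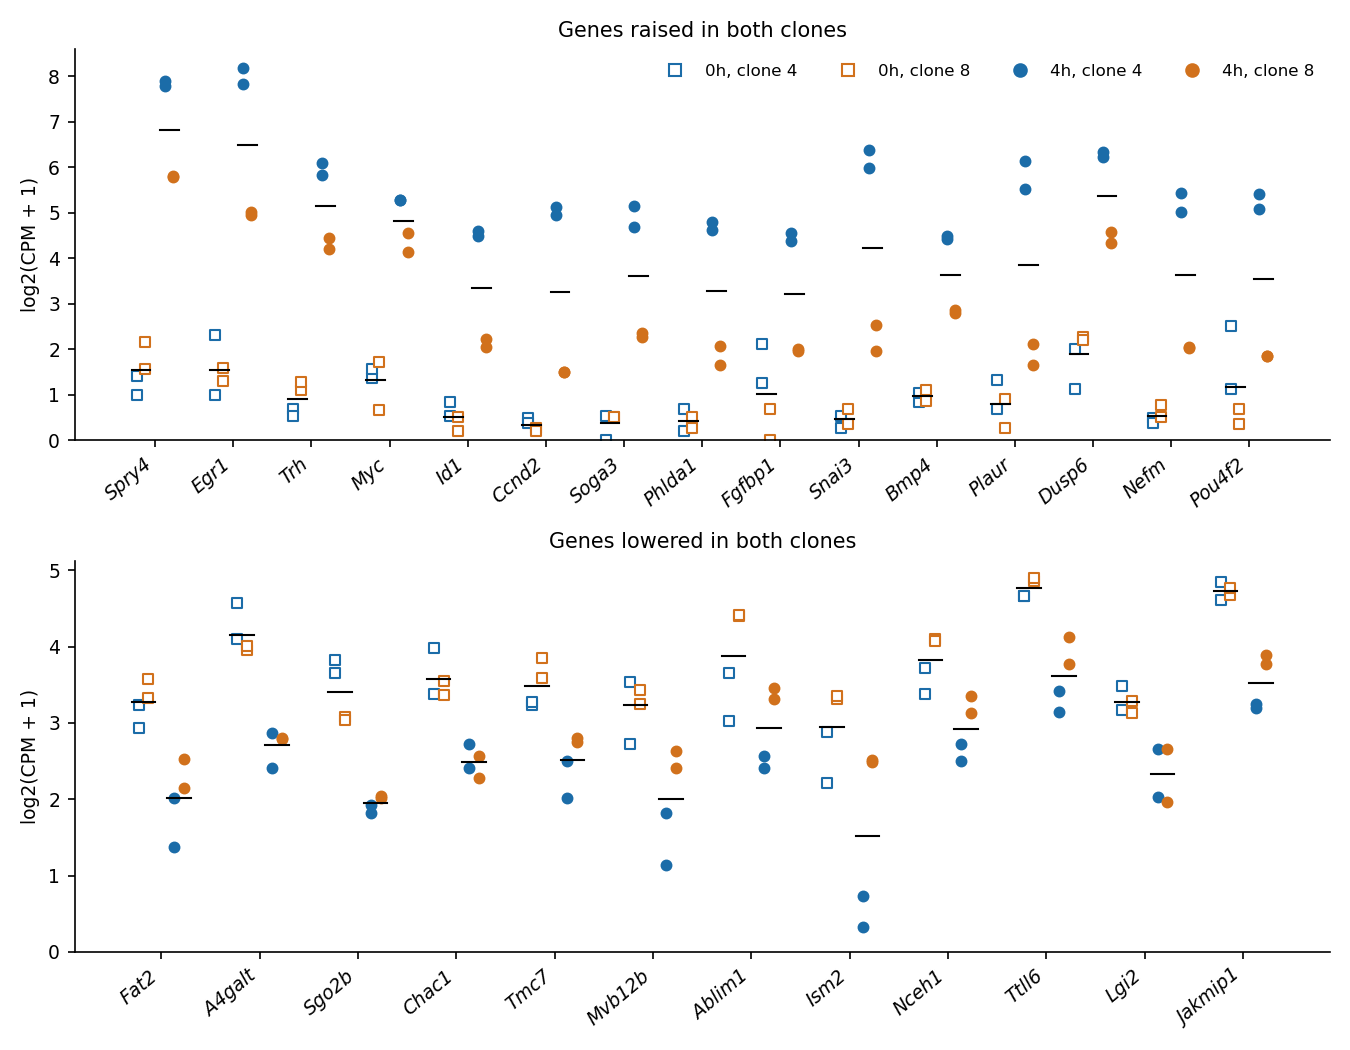
Level of each named gene as log2(CPM + 1) in the 8 libraries, squares for 0h and circles for 4h, blue for clone 4 and orange for clone 8, with the mean of each group as a bar. In the upper panel 13 of 15 and in the lower panel 10 of 12 genes have groups that do not overlap. The selection rule required each 4h library to lie beyond both 0h libraries of its clone.

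The promoters of 3 of these genes are shown for the ERK-related motifs they hold near the start. RefSeq promoter windows on GRCm38.p6, from 250 bases before to 50 after the start, were matched by symbol for 7 of the 15. They were searched on both strands for CCGGAA (the ETS core), TGANTCA (the AP-1 site), TGACGTCA (the CRE) and the CArG box of SRF. The Trh, Bmp4 and Plaur windows held a match, given in capitals 5′ to 3′ along the gene. The Soga3, Fgfbp1, Dusp6 and Pou4f2 windows held none of these letters. The Trh window, at chr6:92244601-92244900 on the minus strand, holds CCGGAA on both strands in an overlapping pair that starts 128 and 126 bases before the start. The Bmp4 window, at chr14:46390620-46390919 on the minus strand, holds CCGGAA on the opposite strand, from 95 bases before the start. The Plaur window, at chr7:24462233-24462532 on the plus strand, holds TGANTCA 69 bases before the start.
Trh: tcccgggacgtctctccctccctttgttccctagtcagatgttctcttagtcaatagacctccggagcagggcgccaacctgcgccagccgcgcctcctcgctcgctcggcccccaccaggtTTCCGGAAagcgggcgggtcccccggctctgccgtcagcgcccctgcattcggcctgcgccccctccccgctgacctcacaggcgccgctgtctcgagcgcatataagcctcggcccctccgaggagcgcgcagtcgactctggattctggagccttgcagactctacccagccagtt
Bmp4: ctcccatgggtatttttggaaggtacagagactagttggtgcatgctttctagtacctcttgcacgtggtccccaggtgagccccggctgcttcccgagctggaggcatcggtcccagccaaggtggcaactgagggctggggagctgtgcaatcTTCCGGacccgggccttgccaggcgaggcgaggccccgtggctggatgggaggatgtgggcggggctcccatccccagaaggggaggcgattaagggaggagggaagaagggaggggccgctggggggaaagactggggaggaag
Plaur: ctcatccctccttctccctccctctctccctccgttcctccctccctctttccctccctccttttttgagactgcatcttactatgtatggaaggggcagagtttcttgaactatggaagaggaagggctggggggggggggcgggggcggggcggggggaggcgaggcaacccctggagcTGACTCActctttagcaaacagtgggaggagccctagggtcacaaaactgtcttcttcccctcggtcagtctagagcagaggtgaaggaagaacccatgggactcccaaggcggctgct

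Among the genes with a window, CCGGAA was found in 32.4% of 9491 tested genes, 26.2% of 191 genes higher in both clones and 13.1% of 137 lower in both. TGANTCA was in 5.62%, 5.24% and 6.57% of the same sets. TGACGTCA was in 3.69%, 4.71% and 3.65%, and the CArG box in 1.51%, 1.57% and 1.46%. The shares in the raised genes were thus close to those in all tested genes, except for a lower share with CCGGAA. A match describes the letters in the window and nothing about binding.

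The EGR factors and their NAB corepressors, which bind EGR proteins and limit them, were a list of 6 members. Of these, 4 passed the filter on low counts and were called higher, against 7.35% of all genes, 2 of them in both clones (Egr1 and Nab2). The median of these 4 genes, Egr3 among them, was a log2 change of 3.99, against -0.006 for all genes. Egr3 was nearly absent at 0h, with 1 count over the 4 libraries, and had 224 counts at 4h, a ratio of 226 with a 95% counting interval of 40.2 to 8980. In clone 4 it was at least 72.4-fold higher, set against a floor of 3 counts over the group. In clone 8 it went from 1 count to 10, a ratio of 10.1 with an interval of 1.43 to 438. Its 4h libraries of clone 8 held 8 and 2 counts, so the 4h libraries alone did not carry it through the filter. Egr3 passed only through libraries other than those of 0h, so a call for it was bound to be a rise. Nab2 went from 3.8 and 2.88 CPM in clone 4 and 5.6 and 5.46 CPM in clone 8 to 39.2 and 47.8 CPM in clone 4 and 11.9 and 11.9 CPM in clone 8, and 42.2% of its exon length is shared with a gene on the opposite strand. The clone 4 change of Nab1 was 3.44, while that in clone 8 was 0.64 and was not called (adjusted p 0.11). Egr2 and Egr4 were too low to test: Egr2 had 2 counts at 0h and 6 at 4h, and Egr4 had 4 and 4.

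Of 9 tested FOS and JUN family genes, the subunits and partners of AP-1, 6 were higher (Fos, Fosl1, Fosl2, Jun, Junb and Maff) and 1 was lower (Atf3), against 7.35% and 5.56% of all genes. Fos, Fosl1 and Fosl2 had fewer than 10 counts in every 0h library and Atf3 in every 4h library, so for these 4 a call could hardly go the other way. Junb was the member called in both clones. It went from 4.79 and 6.37 CPM in clone 4 and 4.98 and 4.46 CPM in clone 8 to 26.8 and 23.9 CPM in clone 4 and 9.65 and 9.04 CPM in clone 8, a change of 1.64 (SE 0.30, adjusted p 0.00113). The FOS-related genes were low: Fosl1 was at 0.599 and 0.455 CPM in clone 4 and 0.934 and 0.287 CPM in clone 8 before and 6.93 and 6.35 CPM in clone 4 and 1.61 and 1.69 CPM in clone 8 after, and shares 57.2% of its exon length with an opposite-strand gene. Fos itself changed by 1.53 (SE 0.48, adjusted p 0.0387) and its groups overlapped, at 0.152 to 1.2 CPM before and 0.804 to 4.06 CPM after. Atf3 changed by -1.62 (SE 0.51, adjusted p 0.0401), a call that was lost without any of 0h clone 4 replicate 1, 0h clone 8 replicate 1, 4h clone 4 replicate 1 and either 4h library of clone 8. The Junb call in both clones was lost without either 0h library of clone 8 or without 4h clone 8 replicate 1.

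Among 19 other tested immediate-early genes, 11 were higher and 0 lower, against 7.35% and 5.56% of all genes. In both clones 6 were higher (Ier2, Zfp36l1, Arc, Plaur, Phlda1 and Tiparp), against 2.06% of all genes. Ier2 was not among the 11 (adjusted p 0.0567). Zfp36l1, which encodes an RNA-binding protein that promotes decay of AU-rich mRNAs, went from 5.99 and 5.46 CPM in clone 4 and 5.19 and 4.31 CPM in clone 8 to 37.6 and 45.7 CPM in clone 4 and 17.5 and 16.2 CPM in clone 8. Arc, an activity-regulated gene of neurons, went from 12.4 and 10.9 CPM in clone 4 and 15.8 and 16.2 CPM in clone 8 to 124 and 126 CPM in clone 4 and 24.6 and 24 CPM in clone 8. For both genes the groups did not overlap. Opposite-strand genes share 55.9% of the Zfp36l1 exon length. The Arc rise was 3.43 in clone 4 and 0.61 in clone 8, a difference that was called (-2.82, adjusted p 8.68e-11). Tiparp, a mono-ADP-ribosyltransferase, changed by 1.48 (SE 0.17, adjusted p 8.78e-06). Rrad, a RAS-related GTPase, had 0 counts at 0h and 54 at 4h, and was at least 18.2-fold higher. It passed the filter only through libraries other than those of 0h, so a call for it was bound to be a rise. Srf, the factor that binds CArG boxes, changed by 0.90 in clone 4 (adjusted p 5.42e-07) and by 0.06 in clone 8 (0.853). The count of 6 in both clones became 2 without 0h clone 8 replicate 1 and 3 without 4h clone 8 replicate 1.

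Of 11 tested feedback inhibitors of the Sprouty, Spred and related families 7 were higher and 0 lower, against 7.35% and 5.56% of all genes. The other 4 were not called. Spry2, Spry4, Spred1 and Il17rd were higher in both clones. Lrig1, a membrane inhibitor of EGF receptors, was not called over both clones but was lower in clone 4 (-0.54, adjusted p 0.0395). Spry2 went from 12.4 and 14.1 CPM in clone 4 and 12.4 and 12.4 CPM in clone 8 to 63.1 and 54.4 CPM in clone 4 and 33.1 and 29.6 CPM in clone 8, a change of 1.73 (SE 0.16, adjusted p 6.37e-07). Spred1, an inhibitor of RAS signalling to RAF, started at different levels, 3.8 and 1.97 CPM in clone 4 and 17.2 and 15.9 CPM in clone 8, and ended at 52.5 and 43.7 CPM in clone 4 and 25.7 and 27.3 CPM in clone 8. Its rise was 4.13 in clone 4 and 0.67 in clone 8, and the difference was called (adjusted p 7.50e-10). Il17rd, also known as Sef, changed by 0.95 (SE 0.12, adjusted p 2.64e-05) with like values in the clones, 1.17 and 0.76. The count of 7 was 4 without either 0h library of clone 4, without 4h clone 4 replicate 1 or with library totals.

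The dual-specificity phosphatases remove phosphate from MAP kinases. Of 11 tested members 4 were higher and 0 lower, against 7.35% and 5.56% of all genes, and 7 were not called. The list median was 0.09. Dusp6, the cytoplasmic ERK phosphatase (ENSMUSG00000019960, chromosome 10, 99263231 to 99267489, plus strand), went from 1.2 and 3.03 CPM in clone 4 and 3.84 and 3.59 CPM in clone 8 to 80.0 and 73.9 CPM in clone 4 and 22.8 and 19.3 CPM in clone 8, a change of 3.78 (SE 0.36, adjusted p 1.37e-06). Dusp4 and Dusp5, which are among the nuclear members, went the same way. Dusp4 was at 0.599 and 1.36 CPM in clone 4 and 4.05 and 3.88 CPM in clone 8 and then at 68.8 and 59.7 CPM in clone 4 and 15.4 and 13.8 CPM in clone 8. Dusp5 was at 2.4 and 2.42 CPM in clone 4 and 2.7 and 3.45 CPM in clone 8 and then at 33.2 and 26.7 CPM in clone 4 and 5.73 and 7.04 CPM in clone 8. None of these 3 genes had overlapping groups, and for each the rise was called in both clones and was larger in clone 4. The adjusted p of the difference was 4.86e-06 for Dusp6, 6.81e-07 for Dusp4 and 2.11e-05 for Dusp5. Dusp2 was higher in clone 4 alone by its call, with changes of 3.35 and 0.97, and the difference was not called (adjusted p 0.275). Dusp1 changed by 0.21 and was not called (adjusted p 0.444). Opposite-strand genes share 22.1% of the Dusp5 exon length.

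Of 14 tested ETS factors 6 were higher and 1 lower, against 7.35% and 5.56% of all genes. Etv4 and Etv5, factors of the PEA3 group induced by FGF signalling, were called in both clones, as were the repressors Etv6 and Erf. Etv4 went from 2 and 0.303 CPM in clone 4 and 4.67 and 4.02 CPM in clone 8 to 39.7 and 32.5 CPM in clone 4 and 19.6 and 18.1 CPM in clone 8 and Etv5 from 88.7 and 87.2 CPM in clone 4 and 102 and 104 CPM in clone 8 to 182 and 209 CPM in clone 4 and 143 and 149 CPM in clone 8. Etv4 was near the detection limit in 1 uninduced library, while Etv5 was abundant before induction. Erf, a repressor that ERK moves out of the nucleus, changed by 0.86 (SE 0.09, adjusted p 3.88e-06) and by almost the same amount in both clones (0.76 and 0.95). Spic, which fell, went from 12.6 and 14.4 CPM in clone 4 and 15.2 and 14.2 CPM in clone 8 to 3.07 and 3.3 CPM in clone 4 and 7.64 and 9.04 CPM in clone 8, a change of -1.23 (SE 0.25, adjusted p 0.00253). The 4 ETS genes higher in both clones were 2 without 0h clone 8 replicate 1, and Spic was not called in both clones without 0h clone 8 replicate 1 or 4h clone 8 replicate 1. With library totals 1 ETS gene was higher in both clones and 0 were lower.

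Beside the rise of Myc, its paralog Mycl fell from 19.2 and 17.4 CPM in clone 4 and 27.5 and 27.2 CPM in clone 8 to 2.93 and 5.84 CPM in clone 4 and 15.8 and 15.6 CPM in clone 8, a change of -1.28 (SE 0.19, adjusted p 0.000193). The fall was called in both clones and was larger in clone 4 (-2.19 against -0.80, adjusted p of the difference 0.000775). With library totals Mycl was not called in both clones. Of the 12 tested members of the MYC and MAX network, Mlxip was also higher, by 0.35 (SE 0.10, adjusted p 0.0308), and the other 9 were not called. In all, 2 of the 12 were higher and 1 lower, against 7.35% and 5.56% of all genes. Within the clones Mlxip was called in neither (adjusted p 0.201 and 0.0505). The count of 2 higher genes was 1 with library totals and without 0h clone 4 replicate 2, either 0h library of clone 8, 4h clone 4 replicate 2 or 4h clone 8 replicate 2.

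The genes listed with the cascade itself gave few calls. Of 22 tested genes of the RAF, MEK and ERK list, 3 were called higher (Braf, Shc1 and Esr1), 0 lower and 0 in both clones, a share close to the 12.9% of all genes. Esr1, the oestrogen receptor gene, is not a kinase of the cascade. It changed by 0.56, with overlapping groups, and was called in neither clone (adjusted p 0.0972 in clone 4 and 0.107 in clone 8). Whether its reads came from the construct that 4OHT switches on was not tested. The count was 0 without 0h clone 4 replicate 1 or 4h clone 4 replicate 2, and 1 without 0h clone 4 replicate 2, 0h clone 8 replicate 2 or 4h clone 4 replicate 1. Braf changed by 1.21 in clone 4 and -0.09 in clone 8, a difference that was called (adjusted p 8.93e-06).

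Of the tested FGF ligands, receptors and adaptors, 3 of 13 were lower and 1 higher, against 5.56% and 7.35% of all genes. Fgf4, the ligand that pluripotent cells make, fell from 260.1 and 239.9 CPM in clone 4 and 202 and 193 CPM in clone 8 to 56.1 and 82 CPM in clone 4 and 144 and 136 CPM in clone 8. All 4 induced libraries were below all 4 uninduced ones. The change was -1.13 (SE 0.18, adjusted p 0.000433), with -1.88 in clone 4 and -0.50 in clone 8. The receptors Fgfr1 and Fgfr2 were also lower, by -0.44 and -1.17, and within the clones both were called in clone 4 and not in clone 8. Fgfbp1, a secreted carrier that releases FGFs from the matrix, rose by 3.06 in clone 4 and 2.99 in clone 8. The difference of -0.07 had an SE of 2.08, and the 0h libraries of clone 8 held 6 and 0 counts of Fgfbp1. Whether the clones rose alike can therefore not be told. Fgf5, a marker of the epiblast state, was too low to test, with 2 counts at 0h and 20 at 4h, a ratio of 10.1 (95% counting interval 2.46 to 89.2). Without 4h clone 4 replicate 1 the count of lower genes was 1, and Fgf4 was not called in both clones without 0h clone 8 replicate 1 or 4h clone 8 replicate 2.

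Among 11 tested EGF-type and other growth factors and receptors 4 were higher and 1 lower, against 7.35% and 5.56% of all genes. Hbegf, an EGF receptor ligand, went from 5.99 and 5.46 CPM in clone 4 and 9.65 and 11.6 CPM in clone 8 to 32.5 and 33.8 CPM in clone 4 and 14.6 and 14.7 CPM in clone 8, without overlap. Pdgfa, a PDGF ligand, changed by 1.03 and 0.54 in the clones, and Erbb3, an EGF receptor relative, by 1.26 and 0.54. Their clone 8 calls were lost without 0h clone 8 replicate 1, and that of Erbb3 also without 0h clone 8 replicate 2 or 4h clone 8 replicate 1. Opposite-strand genes share 26.1% of the Pdgfa exon length. Vgf, a secreted neuropeptide precursor, rose in clone 4 (4.85) and stood at -0.13 in clone 8, a difference that was called (adjusted p 0.000473).

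The naive pluripotency list did not move one way. Of 10 tested genes 4 were lower (Nanog, Klf4, Tfcp2l1 and Prdm14) and 2 higher (Klf5 and Nr0b1), against 5.56% and 7.35% of all genes. The list median was -0.28. Without the clone covariate 0 were lower. Prdm14, a repressor of FGF receptor signalling in naive cells, was the lower gene called in both clones, though not with library totals. It went from 27 and 20.6 CPM in clone 4 and 31.1 and 36.4 CPM in clone 8 to 5.87 and 8.89 CPM in clone 4 and 21.7 and 19.1 CPM in clone 8, a change of -1.75 in clone 4 and -0.71 in clone 8. Nanog, a core factor of the naive network, went from 344 and 344 CPM in clone 4 and 541 and 528 CPM in clone 8 to 111 and 169 CPM in clone 4 and 404 and 468 CPM in clone 8. The fall was called in clone 4 (-1.32) and not in clone 8 (-0.30, adjusted p 0.181), and the difference was called (adjusted p 0.000308). Klf4 showed the same, with -1.53 and -0.23. At 0h clone 8 held more Nanog, Klf4 and Tfcp2l1 than clone 4 in every library.

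Klf5, a Krüppel-like factor of the same network, rose in both clones. It went from 69.5 and 54 CPM in clone 4 and 73.2 and 87.1 CPM in clone 8 to 149 and 155 CPM in clone 4 and 127 and 159 CPM in clone 8, with no overlap and a change of 1.06 (SE 0.14, adjusted p 4.88e-05). Nr0b1, also known as Dax1, an orphan nuclear receptor, changed by 1.01 and 0.52. The 2 rises called in both clones became 1 without either 0h library of clone 8 or without 4h clone 8 replicate 1.

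Of the general pluripotency genes 12 were tested, with a median of 0.35. Of these, 6 were higher (Utf1, Lin28a, Dppa2, Dppa4, Zscan10 and Tdgf1) and 0 lower, against 7.35% and 5.56% of all genes. In both clones 4 were higher, against 2.06% of all genes. Utf1, a chromatin-associated factor, went from 26.4 and 27 CPM in clone 4 and 39.4 and 41.8 CPM in clone 8 to 83.6 and 91.2 CPM in clone 4 and 77.1 and 85.5 CPM in clone 8, a change of 1.32 (SE 0.14, adjusted p 3.88e-06) with no overlap. Dppa2, which with Dppa4 primes developmental promoters, went from 24.4 and 23.3 CPM in clone 4 and 33.2 and 34.5 CPM in clone 8 to 45.5 and 55.4 CPM in clone 4 and 58.4 and 59.3 CPM in clone 8. Lin28a, which blocks maturation of let-7 microRNAs, was uneven at 0h, 25.4 and 47 CPM in clone 4 and 11 and 10.8 CPM in clone 8, and reached 93.3 and 75.7 CPM in clone 4 and 39.8 and 37.2 CPM in clone 8. Its groups overlapped across clones but not within them, with changes of 1.21 and 1.82. Tdgf1, the Nodal co-receptor Cripto, changed by 0.91 and 0.63. Pou5f1 and Sox2, the core pair, were at 0.16 and -0.03 and were not called (adjusted p 0.306 and 0.817). With library totals 2 of the 4 were called in both clones.

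**Figure D3:**
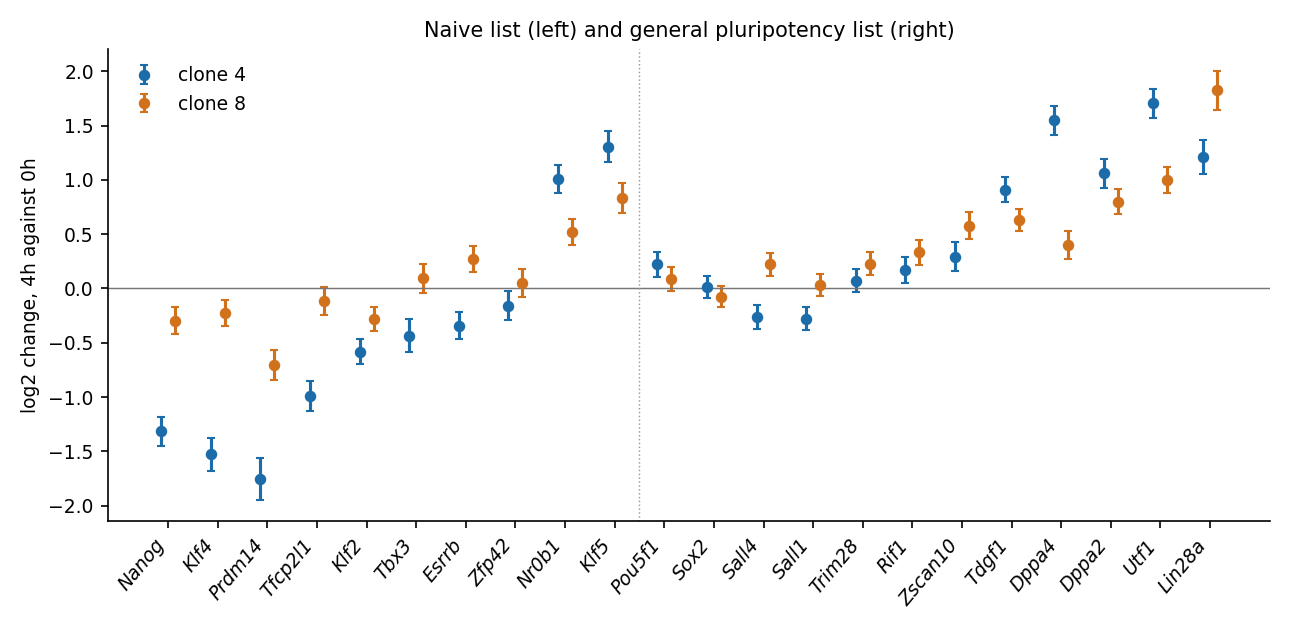
Log2 change at 4h against 0h with its standard error in clone 4 (blue) and clone 8 (orange) for the 10 genes of the naive list and the 12 of the general pluripotency list. Nanog, Klf4 and Prdm14 lie lowest on the left, and Lin28a and Utf1 highest on the right.

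Of 13 tested formative and primed genes 2 were higher, Pou3f1 among them, and 1 lower (Tead2), against 12.9% of all genes. Pou3f1, also known as Oct6, changed by 2.57 in clone 4 and 0.22 in clone 8, a difference that was called (adjusted p 0.000194). Otx2 stood at -0.20 (adjusted p 0.557). Of 17 tested DNA methylation and Polycomb genes 3 were higher and 2 lower, against 7.35% and 5.56% of all genes. Dnmt3l, a cofactor of the de novo methyltransferases, went from 19.8 and 29.1 CPM in clone 4 and 26.5 and 23.4 CPM in clone 8 to 73.5 and 62 CPM in clone 4 and 44.7 and 40.1 CPM in clone 8, and Jarid2, a PRC2 subunit, from 210.0 and 214 CPM in clone 4 and 208 and 210.1 CPM in clone 8 to 390.1 and 384 CPM in clone 4 and 277 and 268 CPM in clone 8. Both genes were higher in both clones and neither had overlapping groups, though without any 1 of the 4 clone 8 libraries Jarid2 was not called in clone 8. Eed, a core PRC2 subunit, was the other higher gene, with 0.35 (SE 0.09, adjusted p 0.0142). The lower genes were Phf19, a PRC2 accessory subunit, with -0.71 (SE 0.15, adjusted p 0.00325), and Ezh1, a PRC2 methyltransferase, with -0.44 (SE 0.13, adjusted p 0.0261). The fall of Phf19 was called in both clones, but not with DESeq2, with library totals, or without any 1 of 0h clone 4 replicate 1, 0h clone 8 replicate 1, either 4h library of clone 4 and 4h clone 8 replicate 2. The count of 2 lower genes was 1 without 0h clone 4 replicate 1, either 0h library of clone 8 or either 4h library of clone 4, and 0 with library totals. Pou3f1 was not called over both clones without either 0h library of clone 4 or without 4h clone 4 replicate 1.

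Of 13 tested genes of the ID and BMP list, 4 were called higher in the covariate fit (Id1, Id3, Bmp4 and Smad7), against 7.35% of all genes. The same 4 were higher in both clones, against 2.06% of all genes. In the covariate fit 9 were not called and 0 were lower, against 5.56% of all genes lower. Id1 and Bmp4 had fewer than 10 counts in every 0h library, so for these a call could hardly go the other way. Smad1, a signal transducer of BMP, was lower in clone 4 (-0.75, adjusted p 0.00732) and not called in clone 8 (-0.18). Id3 went from 0.599 and 1.06 CPM in clone 4 and 1.66 and 2.01 CPM in clone 8 to 11.3 and 12.2 CPM in clone 4 and 9.05 and 7.5 CPM in clone 8, a change of 2.83 (SE 0.31, adjusted p 5.92e-06). Smad7, an inhibitor of BMP and Nodal receptors, changed by 0.63 in clone 4 and 1.11 in clone 8, with groups that overlapped. In the Nodal list, 4 of 13 were higher and 3 lower, against 7.35% and 5.56% of all genes. Smad3, a signal transducer of Nodal, fell from 28.2 and 27.7 CPM in clone 4 and 26.1 and 24.1 CPM in clone 8 to 8.8 and 12.7 CPM in clone 4 and 19.9 and 19.6 CPM in clone 8, and Nodal itself changed by -0.40 (SE 0.11, adjusted p 0.0217). Lefty1, a Nodal antagonist, was called lower within each clone, -3.53 in clone 4 and -0.83 in clone 8. It was not called in the covariate fit (adjusted p 0.176), and reads of Lefty1 and its paralog Lefty2 can be shared. The higher count of the Nodal list was 2 without 0h clone 4 replicate 2 or 4h clone 8 replicate 1. Its lower count was 1 without 0h clone 4 replicate 2 or 4h clone 4 replicate 1. With only the 8 libraries of 0h and 4h in the fit, 3 were higher and 4 lower.

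In the Wnt list 1 of 11 tested genes was called, against 12.9% of all genes. Porcn, the acyltransferase that IWP2 blocks in this medium, went from 3 and 4.7 CPM in clone 4 and 3.42 and 4.46 CPM in clone 8 to 11.2 and 12.9 CPM in clone 4 and 10.8 and 9.49 CPM in clone 8, a change of 1.51 (SE 0.25, adjusted p 0.000627), with no overlap. In the LIF and STAT3 list 4 of 12 were higher and 1 lower, against 7.35% and 5.56% of all genes. Socs2, a feedback inhibitor of cytokine signalling, went from 25.6 and 28.9 CPM in clone 4 and 19.3 and 18.8 CPM in clone 8 to 54.9 and 58.4 CPM in clone 4 and 35 and 40.1 CPM in clone 8 and changed by the same size in the clones, 1.04 and 0.97. Gbx2, a homeobox gene downstream of LIF, went from 0.599 and 0.606 CPM in clone 4 and 1.45 and 0.719 CPM in clone 8 to 8.27 and 7.37 CPM in clone 4 and 3.92 and 4.13 CPM in clone 8, and 43.5% of its exon length is shared with an opposite-strand gene. Pim3, the lower gene, changed by -0.46 (SE 0.14, adjusted p 0.0318) and was not called without any 1 of the 4 clone 4 libraries or 4h clone 8 replicate 2.

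Of 18 tested cytoskeletal genes driven by YAP and SRF, 7 were higher and 0 lower, against 7.35% and 5.56% of all genes. The other 11 were not called. Actg1, Ccn1 and Cavin1 were higher in both clones, against 2.06% of all genes. Cavin1, a coat protein of caveolae, went from 2.2 and 0.758 CPM in clone 4 and 1.87 and 2.3 CPM in clone 8 to 142 and 99.3 CPM in clone 4 and 7.44 and 5.51 CPM in clone 8, a change of 6.45 in clone 4 and 1.69 in clone 8. Ccn1, the matrix protein CYR61, changed by 1.65 (SE 0.31, adjusted p 0.00179), and Actb, β-actin, by 0.44 (SE 0.11, adjusted p 0.0129). The list median was 0.57 in clone 4 and 0.06 in clone 8, and the difference was called for 6 members, against 5.72% of all genes. The 7 became 4, 2 and 3 without 0h clone 4 replicate 1, 4h clone 4 replicate 1 and 4h clone 4 replicate 2. The 3 in both clones became 1 without either 0h library of clone 8 and 0 without 4h clone 8 replicate 1.

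Of 7 tested epithelial-mesenchymal transition genes 4 were higher (Snai3, Twist1, Cdh2 and Vim) and 0 lower, against 7.35% and 5.56% of all genes. Snai3 and Twist1 had fewer than 10 counts in every 0h library, so for these a call could hardly go the other way. Vim, vimentin, went from 39.4 and 54.7 CPM in clone 4 and 38.3 and 42.1 CPM in clone 8 to 219.9 and 156 CPM in clone 4 and 54.2 and 53.9 CPM in clone 8. It rose by 2.0 in clone 4 and stood at 0.43 in clone 8 (adjusted p 0.055). Twist1 was likewise called in clone 4 and not in clone 8, with 4.70 and 0.30, and both differences were called (adjusted p 6.81e-07 and 0.000533). Among 15 tested epithelial genes 1 was higher and 2 were lower, against 7.35% and 5.56% of all genes. Cdh1, E-cadherin, changed by -0.29 (SE 0.07, adjusted p 0.0115) and Cldn4, a claudin, by -0.60 (SE 0.13, adjusted p 0.00587), while Lad1 rose by 2.92. Lad1 also had fewer than 10 counts in every 0h library. Of 13 polarity and lumen genes, 1 was called, Slc9a3r1, with 0.64 (SE 0.11, adjusted p 0.000954), against 12.9% of all genes.

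Of 17 tested cell cycle genes of G1 3 were called in the covariate fit, a share close to the 12.9% of all genes. The same 3 were called in both clones, against 3.41% of all genes. Ccnd2, cyclin D2, went from 0.40 and 0.303 CPM in clone 4 and 0.207 and 0.144 CPM in clone 8 to 34 and 29.7 CPM in clone 4 and 1.81 and 1.84 CPM in clone 8. In clone 8 these were 3 counts against 30, a ratio of 10.1 with a 95% counting interval of 3.14 to 51.6. Cdk6, a kinase partner of D cyclins, went from 1.2 and 1.82 CPM in clone 4 and 2.9 and 3.02 CPM in clone 8 to 8.67 and 11.2 CPM in clone 4 and 9.85 and 10.1 CPM in clone 8, a change of 2.10 (SE 0.21, adjusted p 1.65e-06), with 4h libraries of both clones between 8.67 and 11.2 CPM. Cdkn1b, the CDK inhibitor p27, went from 34.6 and 30.8 CPM in clone 4 and 57.8 and 55.3 CPM in clone 8 to 11.5 and 11.2 CPM in clone 4 and 42.7 and 41 CPM in clone 8. It fell in both clones, by -1.52 in clone 4 and -0.43 in clone 8, and the groups overlapped because clone 8 began higher. Ccnd1 stood at 0.21 and Ccnd3 at 0.16, neither called. The clone 8 call of Cdkn1b was lost without 0h clone 8 replicate 1 or either 4h library of clone 8, and DESeq2 called 3 members lower in place of 1.

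Of 27 tested ribosome biogenesis genes 14 were higher and 0 lower, against 7.35% and 5.56% of all genes, and 13 were not called. The median change was 0.31 in clone 4 and 0.32 in clone 8. A difference between clones was called for 0 of the 27 by edgeR, against 5.72% of all genes, with 1 at an unadjusted p under 0.05. In a list of this size 0 is close to that share. Nop58, a core protein of box C/D snoRNPs, went from 138 and 151 CPM in clone 4 and 134 and 132 CPM in clone 8 to 200.4 and 205 CPM in clone 4 and 194 and 186 CPM in clone 8, a change of 0.50 (SE 0.09, adjusted p 0.000776). Ddx21, a nucleolar helicase, went from 162 and 188 CPM in clone 4 and 173 and 181 CPM in clone 8 to 255 and 241 CPM in clone 4 and 228 and 233 CPM in clone 8. Mybbp1a went from 284 and 284 CPM in clone 4 and 294 and 313 CPM in clone 8 to 359.6 and 355 CPM in clone 4 and 379 and 375 CPM in clone 8. For all 3 genes each induced library lay above each uninduced one. These calls depend on the scaling: with library totals in place of TMM, 0 of the 27 were called. The 7 called in both clones became 1 to 4 without 0h clone 4 replicate 1 (4), 0h clone 8 replicate 1 (1) or 2 (2), and 4h clone 8 replicate 1 (2) or 2 (3).

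Genes of the ATF4 response, which follows amino-acid shortage and other stress, were mostly not called, and those called were mostly lower. Of 21 tested, 5 were lower (Ddit4, Trib3, Chac1, Pck2 and Nupr1), each in both clones, and 1 higher (Slc7a3). Of all genes 5.56% were lower, 1.36% lower in both clones and 7.35% higher. Ddit4, an inhibitor of mTORC1 signalling, went from 35.2 and 24.2 CPM in clone 4 and 30.8 and 29 CPM in clone 8 to 10.4 and 14 CPM in clone 4 and 18.7 and 14.7 CPM in clone 8, a change of -1.07 (SE 0.17, adjusted p 0.000333). Pck2, mitochondrial PEP carboxykinase, went from 53.3 and 32.6 CPM in clone 4 and 36.6 and 33 CPM in clone 8 to 15.5 and 20.3 CPM in clone 4 and 23.2 and 14.4 CPM in clone 8, without overlap. Slc7a3, a cationic amino-acid transporter, rose from 59.1 and 59.6 CPM in clone 4 and 50.3 and 47.1 CPM in clone 8 to 97.6 and 115 CPM in clone 4 and 90.9 and 70.9 CPM in clone 8. A difference between clones was called for 0 of the 21 by edgeR, against 5.72% of all genes, with 1 at an unadjusted p under 0.05. In a list of this size 0 is close to that share. The 5 lower became 3 without 0h clone 4 replicate 1, 4h clone 4 replicate 2 or either 4h library of clone 8, and 0h clone 4 replicate 1 was the highest library for all 5 genes. The 5 in both clones became 2 without 0h clone 4 replicate 1, 0h clone 8 replicate 1 or 4h clone 8 replicate 2, 2 with DESeq2, and 0 with library totals.

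Of 25 glycolysis and hypoxia genes 7 were lower and 1 higher, against 5.56% and 7.35% of all genes. In both clones 5 were lower (Hk1, Tpi1, Slc2a3, Slc16a3 and Vegfa), against 1.36% of all genes. Hk1, a hexokinase, went from 46.8 and 52 CPM in clone 4 and 36.2 and 38.9 CPM in clone 8 to 25.1 and 24.1 CPM in clone 4 and 21.9 and 22.5 CPM in clone 8, a change of -0.87 (SE 0.11, adjusted p 3.03e-05). Slc16a3, the lactate exporter MCT4, went from 14.4 and 12.1 CPM in clone 4 and 24.8 and 30.6 CPM in clone 8 to 8.53 and 6.35 CPM in clone 4 and 7.84 and 9.04 CPM in clone 8, a change of -1.33 (SE 0.19, adjusted p 0.000171). Neither gene had overlapping groups. Slc2a3, the glucose transporter GLUT3, changed by -0.41 and -0.43 in the clones and Vegfa, an angiogenic ligand, by -0.79 and -0.99. Slc2a1, the transporter GLUT1, was the higher gene, with 0.32 (SE 0.10, adjusted p 0.0365). It was not called without any 1 of the 4 clone 4 libraries, with library totals or with the replicate block. The 5 in both clones became 2 without 0h clone 4 replicate 1 or 4h clone 4 replicate 1, 3 without 0h clone 8 replicate 2, and 1 with library totals. Of 23 sterol and fatty-acid synthesis genes, 2 were higher, Hmgcs1 by 0.35 among them, and 0 lower, against 12.9% of all genes called. The count of 2 became 1 without any 1 library other than 0h clone 8 replicate 1, and 0 with library totals.

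Across the 27 lists 393 of 428 entries passed the filter on low counts. Of 107 entries called higher, 15 had fewer than 10 counts in every 0h library, and of 33 called lower 1 had fewer than 10 in every 4h library. For these a call of the opposite sign was hardly possible. Among the 15 were Egr3, Fos, Fosl1, Fosl2, Phlda1, Rrad, Dusp2, Vgf, Id1, Bmp4, Lad1, Snai3, Twist1 and Ccnd2.

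**Figure D4:**
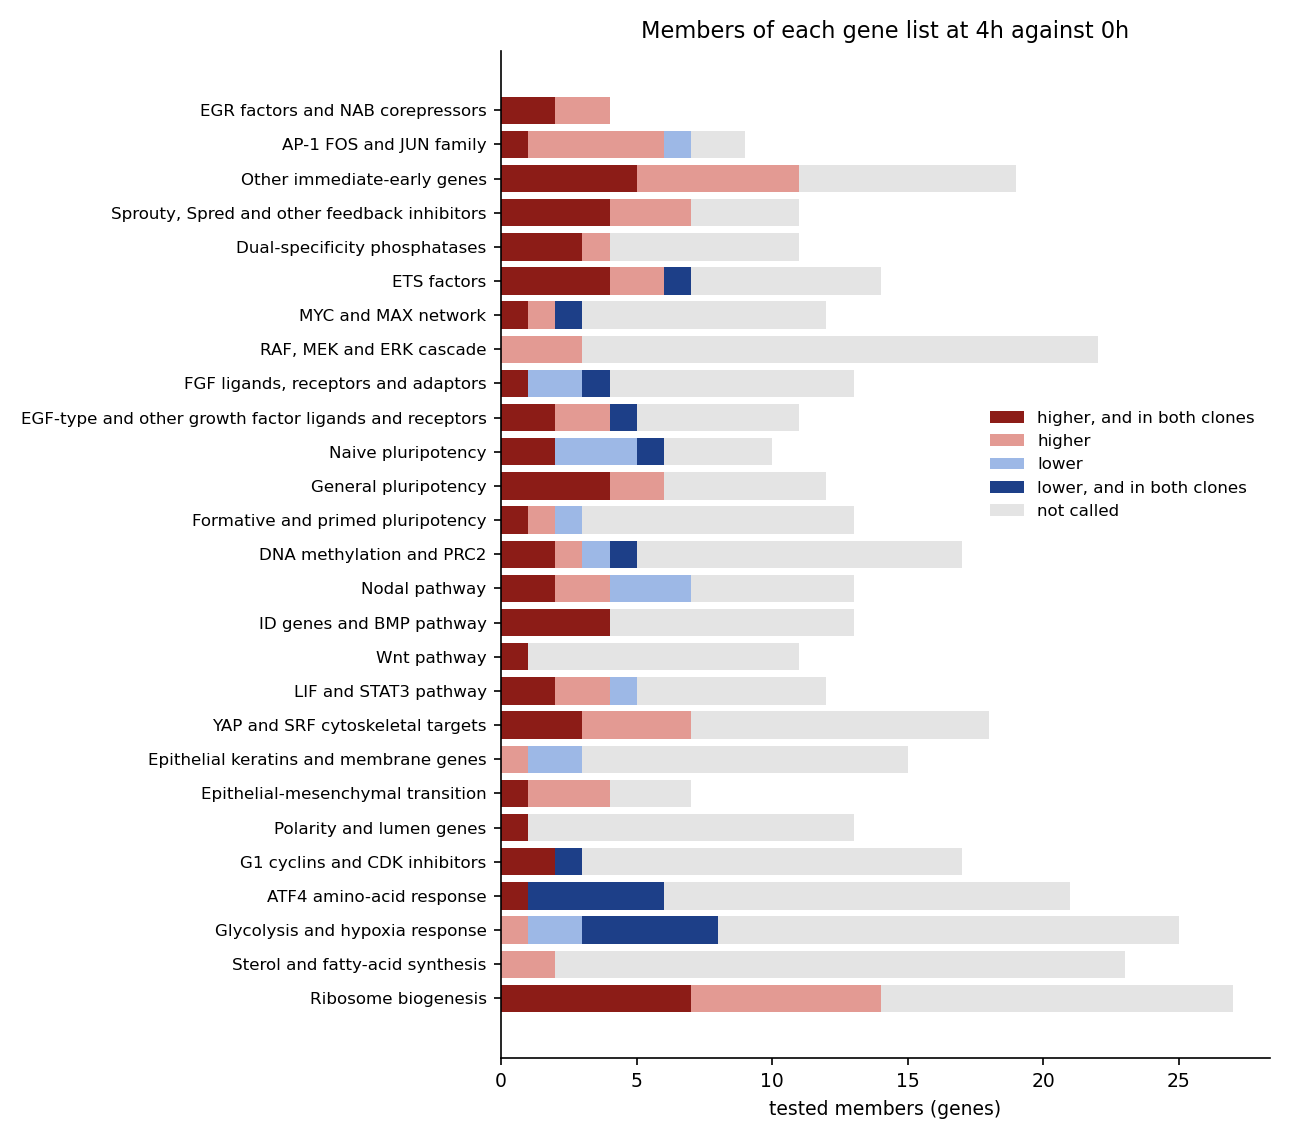
Number of tested members (x axis, genes) of each of the 27 gene lists, divided by their call at 4h against 0h in the covariate fit. Dark red and dark blue mark members that were also called in both clones, and a member called in both clones but not in that fit counts as not called. Ribosome biogenesis holds the most higher members, 14, and glycolysis and hypoxia the most lower ones, 7.

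For 13 lists edgeR called 0 members lower, against 5.56% of all genes. In lists of these sizes 0 is close to that share. DESeq2 also called 0 in 12 of them and 1 in the polarity and lumen list. At an unadjusted p under 0.05, 0 members were lower in the EGR, other immediate-early, dual-specificity phosphatase, general pluripotency, Wnt, epithelial-mesenchymal, sterol and ribosome biogenesis lists. By the same measure 1 was lower among the Sprouty, Spred and related inhibitors, 1 among the YAP and SRF targets, 2 in the BMP list, 2 in the polarity and lumen list and 3 in the RAF, MEK and ERK cascade. In that cascade 3 genes had an unadjusted p under 0.05 in both clones with 1 sign, and DESeq2 called 0.

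The named lowered genes changed less than the raised ones. The largest log2 change among the 12 was -1.69 (Sgo2b). Fat2, an atypical cadherin (ENSMUSG00000055333, chromosome 11, 55250609 to 55336564, minus strand), went from 8.39 and 6.67 CPM in clone 4 and 10.9 and 9.05 CPM in clone 8 to 1.6 and 3.05 CPM in clone 4 and 3.42 and 4.75 CPM in clone 8, a change of -1.48 (SE 0.24, adjusted p 0.000405). A4galt, the synthase of globotriaosylceramide (ENSMUSG00000047878, chromosome 15, 83226722 to 83251774, minus strand), went from 22.8 and 16.1 CPM in clone 4 and 14.5 and 15.1 CPM in clone 8 to 6.27 and 4.32 CPM in clone 4 and 5.93 and 5.97 CPM in clone 8, a change of -1.53 (SE 0.16, adjusted p 4.88e-06). Each 4h library of both genes was below each 0h library. Sgo2b, a shugoshin paralog (ENSMUSG00000094443, chromosome 8, 63924694 to 63952248, minus strand), went from 11.6 and 13.2 CPM in clone 4 and 7.47 and 7.18 CPM in clone 8 to 2.53 and 2.79 CPM in clone 4 and 3.12 and 3.06 CPM in clone 8, a change of -1.69 (SE 0.21, adjusted p 3.17e-05), and its reads can be shared with its near copy.

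Ttll6, a tubulin polyglutamylase, went from 24.4 and 24.2 CPM in clone 4 and 28 and 28.7 CPM in clone 8 to 7.87 and 9.65 CPM in clone 4 and 16.5 and 12.7 CPM in clone 8, a change of -1.21 (SE 0.17, adjusted p 0.000135). Chac1, which degrades glutathione, went from 14.8 and 9.4 CPM in clone 4 and 10.7 and 9.34 CPM in clone 8 to 5.6 and 4.32 CPM in clone 4 and 4.93 and 3.83 CPM in clone 8, a change of -1.23 (SE 0.36, adjusted p 0.0306). The other named genes were Tmc7, Mvb12b, Ablim1, Ism2, Nceh1, Lgi2 and Jakmip1, with changes from -1.41 (Ism2) to -1.0 (Nceh1). In 10 of the 12 the groups did not overlap, and the exceptions were Ablim1 and Ism2. As with the rises, the selection rule already required this separation within each clone. In 1 of the 12, Ism2, the difference between clones was called. Chac1 lost its call over both clones without either 0h library of clone 4, without 4h clone 4 replicate 2 or without either 4h library of clone 8 (adjusted p 0.0534 to 0.122). Mvb12b lost it without 0h clone 4 replicate 1, 0h clone 8 replicate 1 or either 4h library of clone 4 (0.063 to 0.084). The clone 8 call was lost without 0h clone 8 replicate 1 for Fat2, Sgo2b, Chac1, Tmc7, Mvb12b, Ism2 and Lgi2 (adjusted p 0.0515 to 0.272). Leaving out another single library ended a within-clone call of Fat2, Chac1, Mvb12b, Ablim1, Ism2, Nceh1 or Lgi2. A4galt, Ttll6 and Jakmip1 lost no call when any 1 library was left out. With library totals, however, 10 of the 12 lost the clone 8 call (adjusted p 0.0867 to 0.483), Ttll6 and Jakmip1 among them (0.214 and 0.253), and A4galt and Fat2 kept it. A same-strand gene shares 48.2% of the Jakmip1 exon length.

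The change itself differed between the clones for 729 genes (5.72%), and in 470 of these it was lower in clone 8. Of the 435 genes called in both clones, 102 had a called difference. Among the shared raised genes 71 rose less in clone 8 and 0 rose more by edgeR, with 3 rising more at an unadjusted p under 0.05. The largest differences were in Pla2g7, Efr3b and Snai3, which rose less or not detectably in clone 8. Efr3b, a palmitoylated plasma membrane protein that anchors a phosphatidylinositol kinase (ENSMUSG00000020658, chromosome 12, 3962554 to 4038915, minus strand), went from 3.2 and 2.88 CPM in clone 4 and 5.91 and 3.45 CPM in clone 8 to 169.6 and 115 CPM in clone 4 and 5.03 and 6.43 CPM in clone 8. It changed by 5.57 in clone 4 and 0.21 in clone 8, a difference of -5.36 (adjusted p 6.39e-11). Pla2g7, a secreted phospholipase, had 1 count over the 0h libraries of clone 4 and 340 at 4h, a ratio of 345 with a 95% counting interval of 61.5 to 13700, while in clone 8 it changed by 0.87 (adjusted p 0.391).

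In the other direction were Lefty1, Ism2 and AI464131. Lefty1 (ENSMUSG00000038793, chromosome 1, 180935022 to 180938400, plus strand) went from 15.6 and 9.55 CPM in clone 4 and 23.1 and 25.9 CPM in clone 8 to 0.933 and 1.27 CPM in clone 4 and 16 and 10.7 CPM in clone 8, so that both clone 4 libraries ended far below both clone 8 libraries. Its difference was 2.69 (adjusted p 0.000178). AI464131 went from 9.79 and 8.19 CPM in clone 4 and 9.23 and 10.1 CPM in clone 8 to 2.4 and 2.79 CPM in clone 4 and 9.95 and 9.04 CPM in clone 8, a change of -1.80 in clone 4 and -0.01 in clone 8.

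**Figure D5:**
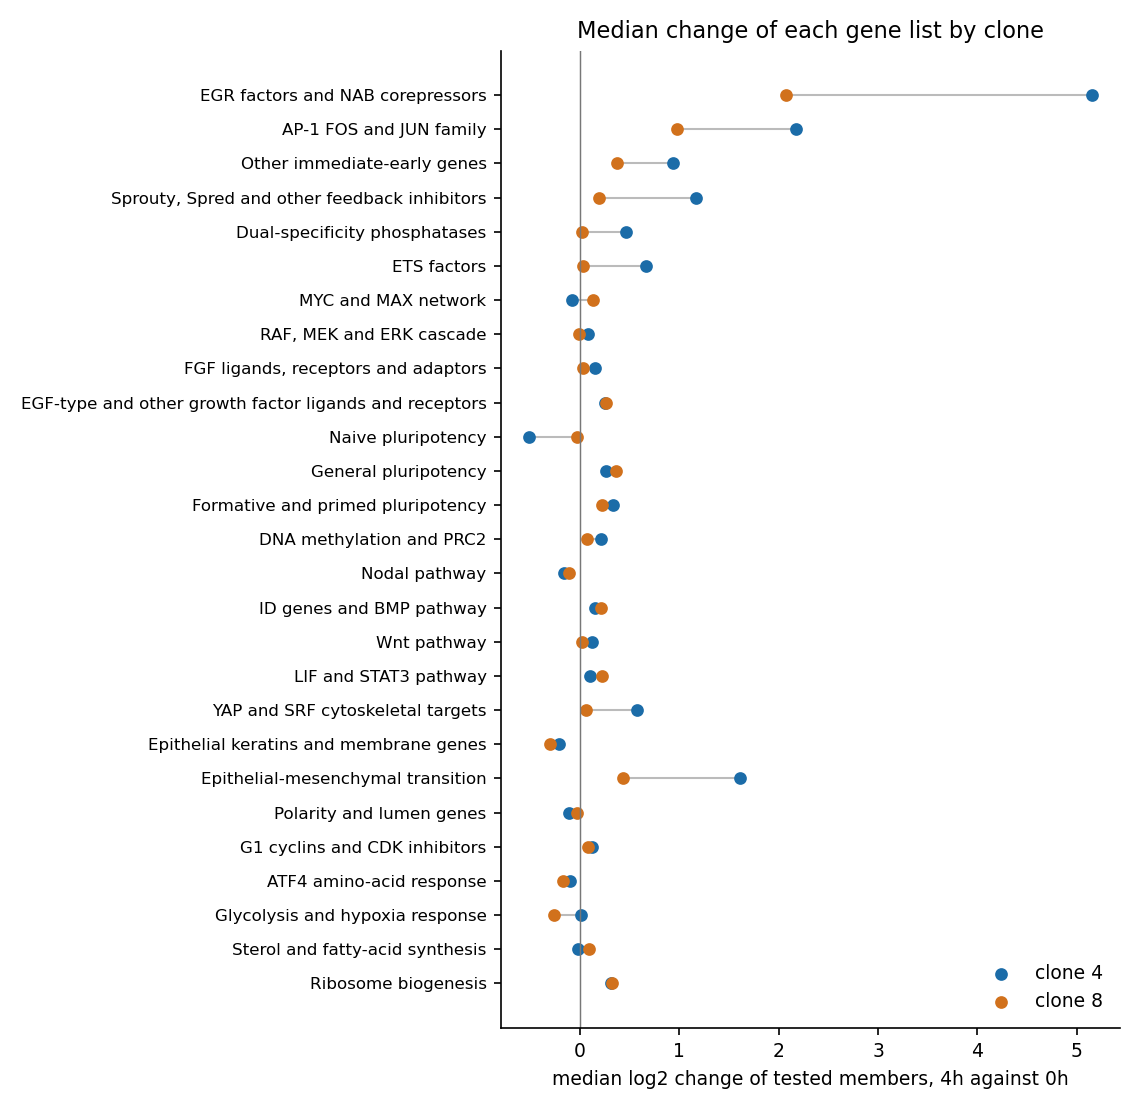
Median log2 change of the tested members of each list at 4h against 0h, in clone 4 (blue) and clone 8 (orange). The EGR list stands at 5.15 and 2.07, and ribosome biogenesis at 0.31 and 0.32. The EGR medians rest on 4 tested genes, of which Egr3 could be called only as a rise.

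List by list, the distance between the clones was uneven. The medians were 2.17 in clone 4 and 0.98 in clone 8 for the FOS and JUN family, 1.17 and 0.19 for Sprouty, Spred and related inhibitors, and 0.66 and 0.03 for ETS factors. They were 0.26 and 0.36 for general pluripotency genes, -0.10 and -0.17 for the ATF4 list and 0.01 and -0.26 for glycolysis and hypoxia. Called differences numbered 10 of 19 in the other immediate-early genes and 5 of 10 in the naive list, against 5.72% of all genes.

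Markers of other cell types were detected at summed levels far below the pluripotency markers. The 6 neural markers summed to 87.6 to 109 CPM at 0h and 85.5 to 98.3 CPM at 4h, and the 8 primitive endoderm markers to 23.4 to 31.9 and 19.0 to 32.3 CPM. The 6 trophoblast markers summed to 8.92 to 13.8 and 9.33 to 28.3 CPM, the 6 mesendoderm markers to 5.31 to 5.91 and 6.44 to 9.65 CPM, and the 7 markers of 2-cell-like cells to 1.82 to 7.57 and 1.27 to 14.2 CPM. The ranges of the 2 groups overlapped except for mesendoderm, where they did not. Of 6 tested neural markers 1 was higher and 1 lower, against 7.35% and 5.56% of all genes. Pax6 went from 0.799 and 4.7 CPM in clone 4 and 0.934 and 1.29 CPM in clone 8 to 21.7 and 17.3 CPM in clone 4 and 3.32 and 3.98 CPM in clone 8 and was called in both clones, and Tubb3, a neuronal tubulin, changed by -0.60 (SE 0.19, adjusted p 0.0408). Of 2 tested mesendoderm markers 1 was higher and 1 lower, against the same shares of all genes. Eomes, also a trophoblast marker, went from 2.8 and 1.67 CPM in clone 4 and 2.28 and 2.44 CPM in clone 8 to 5.73 and 6.6 CPM in clone 4 and 4.83 and 5.05 CPM in clone 8 and was called in both clones, and Gsc, a homeobox gene of the organizer, changed by -1.44 (SE 0.42, adjusted p 0.0302). Their part in the other results was not tested.

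The genes called in both clones also differed in length, which the choice did not use directly. Calls rest on counts, which rise with exon length and level, so the choice was not independent of length. The median genomic span was 40.5 kb for the lowered genes, 24.0 kb for the raised ones and 22.3 kb for all tested genes. The median exon length was 5.95, 4.43 and 4.38 kb in the same order. Protein-coding genes made up 98.8%, 98.1% and 91.6%, and the median 0h level was 17.4, 23.3 and 10.9 CPM. These are descriptions and carry no test.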

How the data were processed

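RNA was measured by RNA-seq of rRNA-depleted total RNA, per the labels' protocols. The authors deposited a table of whole-number counts per Ensembl gene ID, with no normalization. Per the submitters' processing notes, bcl2fastq 2.19.1, STAR 2.5.3a and the build mm10 were used. The counting program, its annotation and its strand setting are not given in the sources used here, so counts of overlapping and near-identical genes are uncertain. Symbols and coordinates (1-based) came from GENCODE M21 on GRCm38, which matched 52489 of 52636 IDs. Promoter sequences came from RefSeq.

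Testing used edgeR 4.0.16 in R 4.3.3, with its quasi-likelihood test as the main one. Genes were kept by edgeR's filter over all 16 libraries, which left 12742, and scaled by TMM. The filter asked for about 10 counts at the median library size in at least 4 libraries of any groups, and a total of 15. The covariate fit held group and clone over all 16 libraries, so that all share 1 estimate of spread. Changes within each clone and their difference (clone 8 minus clone 4) came from a fit with 1 term for each of the 8 pairs of group and clone. With 2 libraries of a clone in a group, the within-clone tests assume the spread pooled over these pairs. A gene was called at a Benjamini-Hochberg adjusted p under 0.05 over all tested genes. SEs were derived from the log2 change and its F statistic. Groups came from the titles, and replicate libraries of a clone differed by more than sampling noise, so none was merged. The procedure was tested on simulated counts.

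The rule for named genes was: called in both clones with 1 sign and in the covariate fit, every 4h library beyond both 0h libraries of its clone, 50 or more counts on average in whichever group was higher and no predicted-gene name. It took the 15 largest rises and 12 largest falls by the smaller of the within-clone changes, and the 3 largest clone differences in each direction. Members of 27 lists (428 entries) may also be named. Some members are counted in their lists but not reported here. The comparison, the lists and the rule were chosen with earlier results of these data known. Floors of 3 counts, taken over the group of libraries named, and 95% intervals of count ratios cover counting error only (no molecular identifiers, so reads of 1 molecule may be counted repeatedly). Alternatives were DESeq2 1.42.0, other scaling, filters, thresholds and samples, a replicate block, and leaving out each library.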

Additional observations from a re-analysis of the deposited data

Results flagged for a closer look

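In 62 combinations of a named gene and a group, 1 library stood apart from the other 3 by Dixon's criterion, which chance meets in about 1 of 20 groups. Soga3 had 0 CPM in 0h clone 4 replicate 1, against 0.415, 0.431 and 0.455 CPM in the other 0h libraries. No 0h library held more than 4 counts of it, so the flag rests on counts near the floor of 3.

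The change at 4h differed between the clones, by the interaction test at an adjusted p under 0.05, for 14 of the 31 named genes. Subtracting the clone 4 value from the clone 8 value on the log2 scale, the difference was -2.97 for Spry4, -2.43 for Egr1, -2.94 for Trh and -3.59 for Soga3. It was -4.78 for Snai3, -1.81 for Bmp4, -3.17 for Plaur, -2.60 for Dusp6 and -4.23 for Nefm. It was -7.28 for Pla2g7 and -5.36 for Efr3b. In the opposite direction it was 2.23 for Ism2, 2.69 for Lefty1 and 1.80 for AI464131. Pla2g7, Efr3b, Snai3, Lefty1, Ism2 and AI464131 were named for the size of this difference, which is therefore a description in them.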

How the results depend on the processing

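No called change of a named gene or list member reversed its sign under any alternative. The balance of higher and lower calls did turn in 5 lists in the covariate fit. The Nodal list went from 4 higher and 3 lower to 3 and 4 with only the 8 libraries, 1 and 2 with library totals, 0 and 1 without the clone covariate and 2 and 4 without 4h clone 8 replicate 1. The G1 list went from 2 and 1 to 2 and 3 with DESeq2, without the features above 1% of all counts, with only the 8 libraries or without either 4h library of clone 8, and to 1 and 3 at a minimum count of 30. The naive list went from 2 and 4 to 2 and 0 without the clone covariate. The epithelial list went from 1 and 2 to 2 and 0 with library totals, 1 and 0 at an absolute log2 change of at least 1 and 3 and 2 with no filter. The RAF, MEK and ERK list went from 3 and 0 to 0 and 1 without 4h clone 4 replicate 2. The median of all genes went from -0.006 to 0.002 with no filter on low counts. Genes called in the covariate fit, 1645, were 513 with library totals, 694 at an adjusted p under 0.01, 421 at an absolute log2 change of at least 1, 546 without the clone covariate, and 964 to 1840 with 1 library left out. Genes called in both clones, 435, were 246 with DESeq2, 68 with library totals, 198 at an adjusted p under 0.01, 91 at an absolute log2 change of at least 1, and 131 to 474 with 1 library left out. Genes whose change differed between clones, 729, were 443 with DESeq2, 157 with library totals, 391 at an adjusted p under 0.01, 433 at an absolute log2 change of at least 1, and 281 to 788 with 1 library left out. Of the 435, DESeq2 kept 245 and library totals kept 67 (64 higher and 4 lower of 68 called), a setting that moved the median of all genes to -0.042. The cause was not tested. Of the called genes 56.9% were higher, and 65.4% at an adjusted p under 0.01, 67.2% at an absolute log2 change of at least 1 and 66.3% without the covariate. The labels number replicates alike in each group, but same-numbered libraries did not deviate together (correlations -0.133 to 0.119). With the replicate block the counts were 1325, 412 and 635. Of the 31 named genes, Chac1 alone lost a call under this block, in the covariate fit (adjusted p 0.0508). In clone 8, Ccnd2 had 3 counts and Egr3 had 1 count over the 0h libraries. The part of depth in the clone 8 values was not tested.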
